A study of Mus musculus with 2 samples.

Results

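Acyl-CoA thioesterases cut the thioester bond of acyl-CoA, the activated form of a fatty acid, and release the free acid and coenzyme A. The family examined here has 10 genes, chosen by symbol: Acot1, Acot2, Acot3, Acot4, Acot7, Acot8, Acot9, Acot11, Acot12 and Acot13. All 10 were found among the 18919 genes of the series table. They were proposed with their values in these 2 libraries already known, so the differences between libraries given below are a description and carry no test.

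Thioesterases work against acyl-CoA synthetases and so set how much acyl-CoA stays available to oxidation, lipid synthesis and signalling in each compartment of the cell. Type I enzymes, Acot1 to Acot6 in the mouse, have an alpha/beta hydrolase fold and lie side by side on chromosome 12, while type II enzymes share a hotdog fold and are spread over the genome. In the small intestine, where enterocytes take up dietary fat and rebuild it into triglyceride, several members are known targets of the nuclear receptor Ppara, which senses fatty acids.

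The libraries were made from intestine of C57BL/6 mice aged 2 months. The control group had the genotype APCmin, an allele of the tumour suppressor gene Apc that gives mice intestinal adenomas, and the knockout group had the genotype APCmin; Setd2IEC-/-, so both groups carried the Apc mutation. Setd2 encodes a histone H3 lysine methyltransferase, and IEC stands for the intestinal epithelium in which it was deleted; the Cre driver is not given in the sources used here. RNA from 3 littermates was pooled for each group, which left 1 library per genotype, no spread between animals and no test between groups. Expected counts added up to 8809678 for the control and 8646358 for the knockout library. Setd2 was at 6.87 FPKM (read fragments scaled to transcript length and library size) for the control and 3.47 for the knockout. Its ratio of CPM (expected counts scaled to the library total) was 0.504, with a 95% counting interval of 0.432 to 0.587. These exact Clopper-Pearson intervals, here and below, cover counting error and not differences between mice. The intestine also holds muscle, immune and stromal cells, and in whole tissue fewer cells of a type and less RNA per cell cannot be told apart.

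Of the 10 members, 9 reached an FPKM of 1 in at least 1 library, and Acot1 did so through the knockout pool alone. Acot1 alone was past 2-fold, on the higher side, and 0 members were past it on the lower side. A gene was counted as past 2-fold when the log2 ratio of knockout over control, with 1 FPKM added to both, was 1 or more or -1 or less. Among the 13253 genes that reached an FPKM of 1, 539 (4.07%) were past 2-fold, 369 (2.78%) higher and 170 (1.28%) lower. With CPM in place of FPKM, and so over the 14706 genes that reached a CPM of 1, 544 were higher and 144 lower. Because the members were chosen with this contrast known, nothing is read from the member count against those shares. The log2 ratio was above 0 for 6 of the 9 members, where 62.5% of all these genes had this, and the median was 0.11 for the members and 0.08 for all.

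Levels per transcript length spanned a wide range. In the control pool the order ran from Acot13 (55.01 FPKM) through Acot7 (44.02), Acot8 (35.65), Acot11 (29.72), Acot12 (25.44), Acot9 (24.05), Acot4 (11.04) and Acot2 (2.48) to Acot1 (0.97), and Acot3 was listed at 0. In that order Acot12 and Acot9 were the neighbours whose counting intervals overlapped. In the knockout pool Acot13 again stood first, at 59.55 FPKM, and Acot8 (46.82) stood above Acot7 (43.57) with overlapping counting intervals. Acot12 moved from the fifth to the sixth place, below Acot9, and Acot1 moved above Acot2. The 6 type II members made up nearly all of the family's FPKM, with a sum of 213.9 for the control and 221.6 for the knockout, against 14.49 and 18.37 for the 4 type I members.

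**Figure D1:**
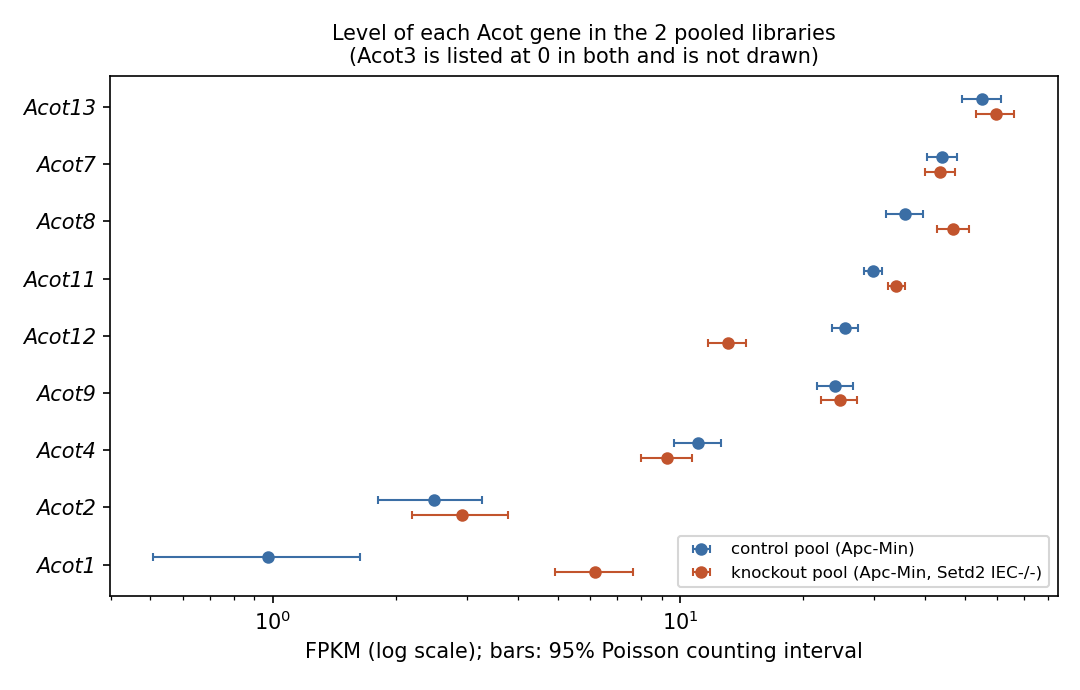
Level of each Acot gene in FPKM on a log axis, control pool in blue and knockout pool in orange, with 95% Poisson counting intervals as bars and 1 library per pool. Acot1 is far to the right in the knockout pool (6.18 against 0.97) and Acot12 to the left (13.07 against 25.44). The other members lie closer together. Of these, Acot8 (46.82 against 35.65) and Acot11 (33.95 against 29.72) have bars that do not overlap between pools.

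Among the type I genes, Acot1 encodes the cytosolic long-chain acyl-CoA thioesterase, which liver and heart induce in fasting. It lies on chromosome 12 of the mouse build mm10 (GRCm38), from 84009502 to 84017670. Acot1 was at 0.97 FPKM for the control and 6.18 for the knockout, from 13.20 and 82.97 expected counts. The knockout pool was therefore 6.40-fold higher, with a counting interval of 3.60 to 12.7, and the log2 ratio with the pseudocount was 1.87. Of all genes that reached an FPKM of 1, 114 (0.860%) had a higher log2 ratio than Acot1. Its share of the summed FPKM of the 10 members was 0.425% for the control and 2.58% for the knockout.

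The value of Acot1 depends on how reads were divided between near-identical genes. The coding sequences of Acot1 (1257 bases) and Acot2 (1359 bases), read from GENCODE transcripts of the same build, differed at 55 of 1236 aligned bases, an identity of 95.6%. Of all 50-base windows of the Acot1 coding sequence, 59.1% occurred unchanged in a transcript of another gene, and of all 100-base windows 41.1%. The read length is not given in the sources used here. The coding stretch in which the 2 genes differ most is shown because reads from it can be told apart; it covers bases 797 to 886 of Acot1 and 920 to 1009 of Acot2, with 14 differing bases in capitals.
Acot1: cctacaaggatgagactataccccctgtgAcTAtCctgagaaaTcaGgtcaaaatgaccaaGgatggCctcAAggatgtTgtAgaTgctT
Acot2: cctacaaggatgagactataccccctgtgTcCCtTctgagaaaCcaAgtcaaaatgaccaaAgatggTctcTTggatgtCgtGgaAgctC
The stretch that follows directly, bases 887 to 1159 of the Acot1 coding sequence, is the longest run shared without a difference (273 bases), so a read lying wholly inside it fits both genes; it is shown for that reason, in lower case.
Acot1 and Acot2: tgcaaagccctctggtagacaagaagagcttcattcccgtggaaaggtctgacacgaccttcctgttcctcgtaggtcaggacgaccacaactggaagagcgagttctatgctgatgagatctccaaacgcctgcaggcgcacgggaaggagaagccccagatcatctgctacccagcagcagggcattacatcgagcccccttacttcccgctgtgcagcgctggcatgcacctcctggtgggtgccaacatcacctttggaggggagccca

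Acot2 encodes the mitochondrial enzyme of the same specificity and starts 21.6 kb before Acot1. It was at 2.48 FPKM for the control and 2.92 for the knockout, from 48.43 and 56.14 counts, a ratio of 1.18 with an interval of 0.794 to 1.79 that includes 1. The fractional counts of both genes show that reads were shared out between genes. When the counts of Acot1 and Acot2 were added, which removes the division between these 2 genes, the sum was 61.63 for the control and 139.1 for the knockout. That sum was 2.30-fold higher, with an interval of 1.68 to 3.13. The pair was thus higher in the knockout pool however reads were divided between its genes, while the size for Acot1 alone rests on the division. The sum does not remove a division of reads with other genes. Some 50-base coding windows of Acot1 also occurred in Acot3, Acot4, Acot5 and Acot6.

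Neither Acot4 nor Acot3 was higher with the knockout. Acot4, whose peroxisomal enzyme also cleaves succinyl-CoA, was the most abundant of them at 11.04 FPKM for the control and 9.27 for the knockout, from 226.9 and 186.8 counts. Its ratio was 0.839 and the interval, 0.688 to 1.02, includes 1. Coding sequence was less of a limit here. Of the 50-base windows of Acot4, 20.6% occurred in other genes, and of its 100-base windows 1.89%. Of its GENCODE transcript of 6203 bases, 9.91% overlaps 4732463B04Rik on the other strand. The length listed with the counts was 2325 bases, so that overlap may not hold for the counted transcript. Acot3, a peroxisomal long-chain enzyme, was listed at 0 in both libraries, and 52.9% of its 50-base coding windows occurred in other genes. More of these windows were in Gm49366 than in any other gene. Gm49366 overlaps 11.5% of the GENCODE transcript of Acot3 on the same strand, so part of that share may be the same genomic sequence. Acot6, which is of the same cluster and outside the member list, cleaves branched-chain acyl-CoA in peroxisomes. It was at 1.68 FPKM for the control and 0.79 for the knockout, from 26.95 and 12.40 counts, a ratio of 0.469 (0.209 to 0.924). Acot5 was not analysed here.

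The cluster as a whole, 121.9 kb from the start of Acot2 at 83987861 to the end of Acot6 at 84109783, had nearly equal summed counts in the pools. Its 5 analysed genes had 315.5 counts for the control and 338.3 for the knockout, a ratio of 1.09 with an interval of 0.932 to 1.27 that includes 1. Without Acot1 the sum was 302.3 and 255.4, a ratio of 0.861 (0.725 to 1.02). Of the nearby genes, Riox1 (listed as 2410016O06Rik) was at 4.87 and 6.59 FPKM, with a ratio of 1.35 (1.04 to 1.77). Dnal1, past the other end, was at 0.69 and 0.70 FPKM, and Pnma1 at 0.19 and 0.34.

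**Figure D2:**
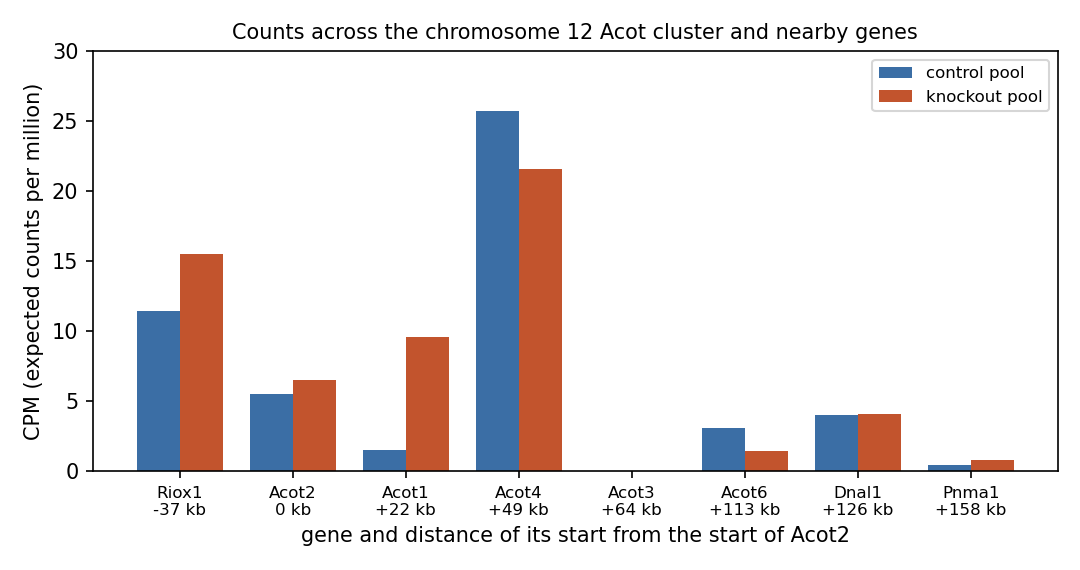
Expected counts scaled to the library total (CPM, linear axis) for the Acot genes of chromosome 12 and the nearest analysed genes, with each gene's distance from the start of Acot2, control pool in blue and knockout pool in orange. The orange bar of Acot1 (9.60 CPM) stands 6.40 times as high as the blue one, while Acot4 is at 25.8 and 21.6 CPM, Acot2 at 5.50 and 6.49 and Acot3 at 0 in both.

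Although their coding sequences are nearly the same, Acot1 and Acot2 begin from unlike sequence. In RefSeq's windows from 250 bases before to 50 bases after the start (GRCm38.p6, plus strand), 45.8% of the aligned bases of Acot1 and Acot2 were identical. Both windows are shown because the 2 genes had different ratios, Acot1 at chr12:84009252-84009551 and Acot2 at chr12:83987611-83987910. The window of Acot4, chr12:84038129-84038428, which surrounds a start inside the gene, is shown for its motif match, read on the minus strand, in capitals.
Acot1: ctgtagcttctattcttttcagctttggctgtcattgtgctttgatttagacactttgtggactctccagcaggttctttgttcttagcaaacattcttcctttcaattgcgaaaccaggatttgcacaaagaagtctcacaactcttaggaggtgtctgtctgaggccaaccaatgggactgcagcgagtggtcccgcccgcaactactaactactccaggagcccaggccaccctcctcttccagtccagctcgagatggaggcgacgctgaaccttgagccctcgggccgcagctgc
Acot2: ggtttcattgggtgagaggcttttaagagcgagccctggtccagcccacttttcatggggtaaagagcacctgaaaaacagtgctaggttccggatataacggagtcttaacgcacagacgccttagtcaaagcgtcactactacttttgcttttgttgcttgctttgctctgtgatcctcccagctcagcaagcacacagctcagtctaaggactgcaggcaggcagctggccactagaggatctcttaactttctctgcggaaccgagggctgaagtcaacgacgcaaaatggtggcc
Acot4: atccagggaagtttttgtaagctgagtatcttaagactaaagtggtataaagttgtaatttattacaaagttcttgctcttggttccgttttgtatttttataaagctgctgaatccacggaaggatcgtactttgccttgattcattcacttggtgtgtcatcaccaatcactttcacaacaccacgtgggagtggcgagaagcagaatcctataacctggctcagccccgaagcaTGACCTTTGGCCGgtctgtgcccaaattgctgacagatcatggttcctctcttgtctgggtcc
The windows of 9 members were searched on both strands for the direct repeat that Ppar and retinoid X receptors are known to bind. The complete repeat, AGGTCA and AGGTCA with 1 base between them, was in none of them and in 0.0396% of all 32851 windows. A relaxed form, NGGNCA and AGGNCA with 1 base between them, was in the Acot4 window on the minus strand, ending just before the start, and in 0.798% of all windows. The single unit AGGTCA, which that match contains, was in the windows of Acot3, Acot4 and Acot12 and in 16.3% of all windows. These matches describe the letters of the windows only.

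Among the type II genes, Acot12 had the lowest ratio. It encodes a cytosolic enzyme that cleaves acetyl-CoA and carries a lipid-binding START domain, and it lies on chromosome 13 from 91741326 to 91786148. Acot12 was at 25.44 FPKM for the control and 13.07 for the knockout, from 688 and 347 counts. The ratio was 0.514, with an interval of 0.450 to 0.586, and the log2 ratio of -0.91 stayed just inside the 2-fold line. After scaling by the median ratio of all genes it was -1.0 and passed the line. Of all genes that reached an FPKM of 1, 195 (1.47%) had a lower log2 ratio. No 50-base window of its coding sequence occurred in another gene, and 4.87% of its transcript overlaps 4833422C13Rik on the other strand.

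Its promoter window, chr13:91741271-91741570 on the plus strand, had 68% G and C and 22 CG pairs, against a median of 52.7% and 7 over all windows, and is shown with its AGGTCA unit, read on the minus strand, in capitals.
Acot12: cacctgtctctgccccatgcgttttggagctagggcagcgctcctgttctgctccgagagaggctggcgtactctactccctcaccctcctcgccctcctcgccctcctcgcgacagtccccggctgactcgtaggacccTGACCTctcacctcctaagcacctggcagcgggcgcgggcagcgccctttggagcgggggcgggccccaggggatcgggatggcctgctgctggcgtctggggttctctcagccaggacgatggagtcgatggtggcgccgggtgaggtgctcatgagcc

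Absorptive enterocyte markers were lower in the same pool as Acot12. Of 23 such markers, 21 had a log2 ratio below 0, with a median of -0.44, and their summed FPKM was 43148 for the control and 30746 for the knockout. Their CPM ratio as a sum was 0.742 (0.739 to 0.744), closer to 1 than that of Acot12, and 1 of the 23, the peptidase gene Ace (355.04 against 183.31 FPKM), had a lower log2 ratio than Acot12. The apolipoprotein gene Apoa4 was at 8881 and 5765 FPKM and the phosphatase gene Alpi at 1770 and 2110. None of the 23 was at 0 in either library. The part of these cells in the Acot12 value was not tested.

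Acot8 and Acot11 were modestly higher in the knockout pool. Acot8 encodes a peroxisomal thioesterase of broad specificity and was at 35.65 FPKM for the control and 46.82 for the knockout, from 360 and 464 counts, a ratio of 1.31 (1.14 to 1.51). Of its transcript, 21.1% overlaps exons of Snx21 on the other strand; Snx21 was at 5.93 and 8.03 FPKM. Acot11, also known as Them1, encodes a long-chain enzyme with a START domain that is best known from brown fat. It was at 29.72 and 33.95 FPKM, from 1502 and 1684 counts, a ratio of 1.14 (1.06 to 1.23). Exons of Fam151a on the other strand overlap 22.2% of the Acot11 transcript, and Fam151a was at 22.05 and 27.88 FPKM, with a CPM ratio of 1.26 (1.10 to 1.45). Whether counting used strand is not given in the sources used here, so reads in the overlaps cannot be assigned to a gene from these sources. Counts of Acot8, Snx21 and Fam151a were whole numbers in both libraries, so no division of reads shows in them. Those of Acot11 were fractional (1502.48 and 1684.38).

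The other type II members had intervals that include 1. Acot13 (Them2), a small enzyme associated with mitochondria, had the highest level of all members, 55.01 FPKM for the control and 59.55 for the knockout, a ratio of 1.08 (0.927 to 1.26). Acot7, a cytosolic enzyme abundant in brain and known for arachidonoyl-CoA, was at 44.02 and 43.57 FPKM, with a CPM ratio of 0.983 (0.873 to 1.11). The mean transcript length the authors list for Acot7, which is weighted over its 3 transcripts, was 1476 bases for the control and 1466 for the knockout. Acot9, a mitochondrial enzyme, was at 24.05 and 24.64 FPKM, with a CPM ratio of 1.03 (0.888 to 1.19), and its log2 ratio of 0.03 turned to -0.06 when scaled by the median ratio. Of its 50-base coding windows, 24.9% occurred in Acot10, an intronless relative that was not analysed here, and of its 100-base windows 1.31%. The counts of Acot9, 374 and 377, were whole numbers.

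**Figure D3:**
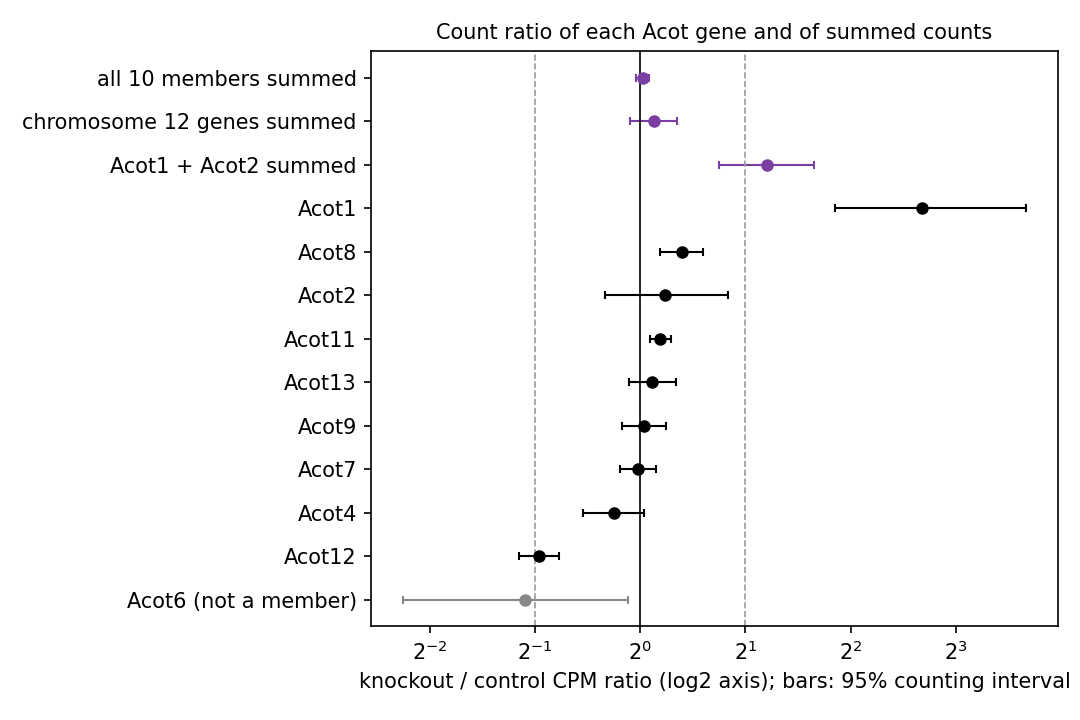
Ratio of CPM in the knockout pool over the control pool for each Acot gene and for summed counts, on a log axis, with 95% counting intervals as bars and dashed lines at 2-fold; Acot3, at 0 in both, is not drawn. Among the members, Acot1 (6.40) lies past the upper line and Acot12 (0.514) beside the lower one, while the sum over all 10 members lies at 1.02. Acot6, drawn in grey and not a member, lies past the lower line at 0.469 (0.209 to 0.924).

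Summed over the 10 members, counts were 4103 for the control and 4088 for the knockout, with a CPM ratio of 1.02 (0.972 to 1.06). By compartment, as background knowledge assigns the enzymes, the 3 cytosolic members (Acot1, Acot7 and Acot12) had a summed FPKM of 70.43 and 62.82 and a count ratio of 0.785 (0.722 to 0.854). Of these cytosolic members, Acot12 had a ratio of 0.514, Acot7 of 0.983 and Acot1 of 6.40, so they did not move together. The 3 peroxisomal members (Acot3, Acot4 and Acot8) summed to 46.69 and 56.09 FPKM, with a CPM ratio of 1.13 (1.01 to 1.27). Here Acot8 was at 1.31, Acot4 went the other way at 0.839 and Acot3 was at 0 in both libraries. The 3 mitochondrial members (Acot2, Acot9 and Acot13) summed to 81.54 and 87.11 FPKM, with a CPM ratio of 1.06 (0.959 to 1.18). Acot11, placed in mitochondria or cytosol, was left out of these sums. Counting intervals left out 1 for 4 of the 9 members, where 40.5% of all genes that reached an FPKM of 1 had this. They lay above 1 for 3 members (Acot1, Acot8 and Acot11), against 28% of all genes, and below 1 for 1 (Acot12), against 12.5%.

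**Figure D4:**
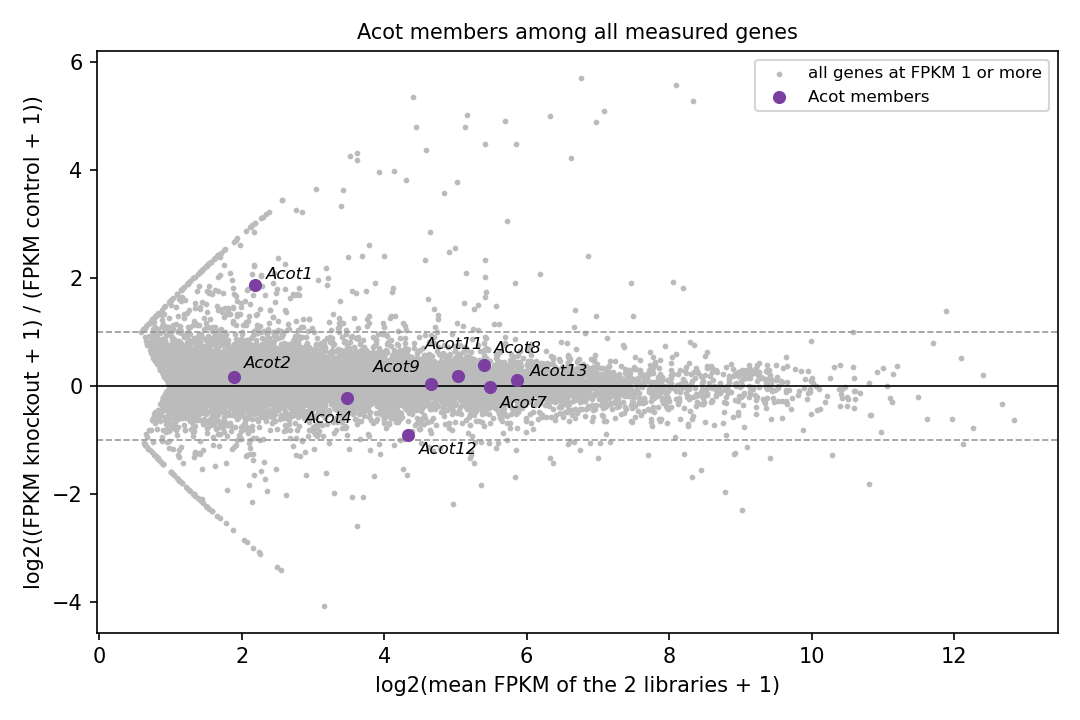
Each point is a gene with an FPKM of 1 or more in at least 1 library, placed by the log2 of its mean FPKM plus 1 (x) and its log2 ratio of knockout over control with a pseudocount of 1 FPKM (y); Acot members are in purple and dashed lines mark 2-fold. Acot1 lies above the upper line at 1.87, Acot12 just inside the lower one at -0.91, and the other 7 lie between -0.23 and 0.38.

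Genes that share substrates with the family were then described from lists of the pathway, written with earlier results of these data known. Of 11 measured thioesterases outside the member list, 0 were past 2-fold in either direction and 6 had a log2 ratio above 0, with a median of 0.12. Ppt1, the lysosomal palmitoyl-protein thioesterase, had the highest ratio, at 23.76 FPKM for the control and 37.89 for the knockout, a count ratio of 1.59 (1.43 to 1.78). Its relative Ppt2 was at 6.66 and 10.67 FPKM and Them6 at 2.07 and 3.70. Them4, a mitochondrial thioesterase, was at 14.66 and 12.13, and Abhd17a, a depalmitoylase and the most abundant of the list, at 116.5 and 114.2. Lypla1 and Lypla2, the cytosolic depalmitoylases, were at 108.8 and 102.04 and at 42.57 and 46.22 FPKM. Abhd17b was at 9.82 and 10.80, Abhd17c at 65.80 and 73.05, and Hibch, of valine breakdown, at 8.04 and 7.87. Baat, which joins bile acids to amino acids, was at 0.75 and 0.12, Them7 at 0 and 0.23 and Them5 at 0.09 and 0, all below an FPKM of 1.

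The acyl-CoA synthetases, which make the substrate, had a summed FPKM of 1473 for the control and 1160 for the knockout. Of 15 measured, 1 was at least 2-fold lower, 0 were higher and 7 had a log2 ratio above 0, with a median of -0.13. The lower gene was Acsm5, for medium chains, at 5.10 against 1.56 FPKM. Acsl5, the main long-chain synthetase of the enterocyte, was at 838.6 and 696.4, and Acss1, the mitochondrial acetyl-CoA synthetase, had the highest ratio, at 18.91 and 28.87. Among acyl-CoA carriers and enzymes that use acyl-CoA, 0 of 20 were past 2-fold and the median was -0.03, with Lpin2, a phosphatidate phosphatase, at 38.19 and 23.81, Fabp6 at 0.47 and 1.68 (2 and 7 counts) and Fabp1, the most abundant carrier of the list, at 4870 and 3179.

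Oxidation genes of mitochondria had a median close to the 0.08 of all genes that reached an FPKM of 1. Those of peroxisomes had a lower one. As sums, the mitochondrial genes had a CPM ratio of 0.961 (0.946 to 0.975) and the peroxisomal genes of 0.870 (0.858 to 0.882). Of 25 mitochondrial genes, 0 were past 2-fold and 16 were above 0, with a median of 0.07; Acad11 was lowest (63.94 against 39.66 FPKM), Acadsb highest (3.90 against 6.10) and Hadh most abundant (390.3 against 308.1). Of 25 peroxisomal genes, 0 were past 2-fold and 18 were below 0, with a median of -0.16, and for 14 the counting interval lay below 1, where 12.5% of all genes had this. Hacl1, of branched-chain breakdown, was at 4.31 and 2.11 FPKM and Pecr, a peroxisomal reductase, at 4.10 and 6.12. Of 16 genes of coenzyme A synthesis and breakdown, 0 were past 2-fold, with a median of -0.05; Enpp3, an ectonucleotidase, was at 383.2 and 230.5 and Enpp1 at 2.47 and 4.08.

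Ppara itself differed little, at 8.07 FPKM for the control and 8.09 for the knockout, with a CPM ratio of 0.994 (0.879 to 1.12). Of 34 measured Ppar and retinoid X receptor genes and textbook Ppara targets, 2 were past 2-fold on the higher side, 0 on the lower side, and 15 had a log2 ratio above 0, with a median of -0.02. The higher ones were Cyp4a10, a fatty acid omega-hydroxylase (2.32 against 7.86 FPKM, ratio 3.38, 2.39 to 4.88), and Fabp3, a fatty acid carrier of muscle and heart (0.53 against 2.51, from 3 and 14 counts). Cyp4a10 has close relatives and fractional counts, so its value is uncertain in the same way as that of Acot1. Aqp7, a glycerol channel, was lowest, at 27.92 and 15.65 FPKM, and Cpt1a, a textbook target chosen after its values were seen, was at 33.77 and 43.90. In log2 ratio Acot1 stood above every gene of these lists, with Cyp4a10 next at 1.42. The lists were written with earlier results known, and Acot1 reached an FPKM of 1 through the knockout pool alone. Its place also rests on the division of reads with Acot2. Summed over Acot1 and Acot2 the CPM ratio was 2.30 (1.68 to 3.13), below the 3.38 of Cyp4a10, with overlapping intervals.

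**Figure D5:**
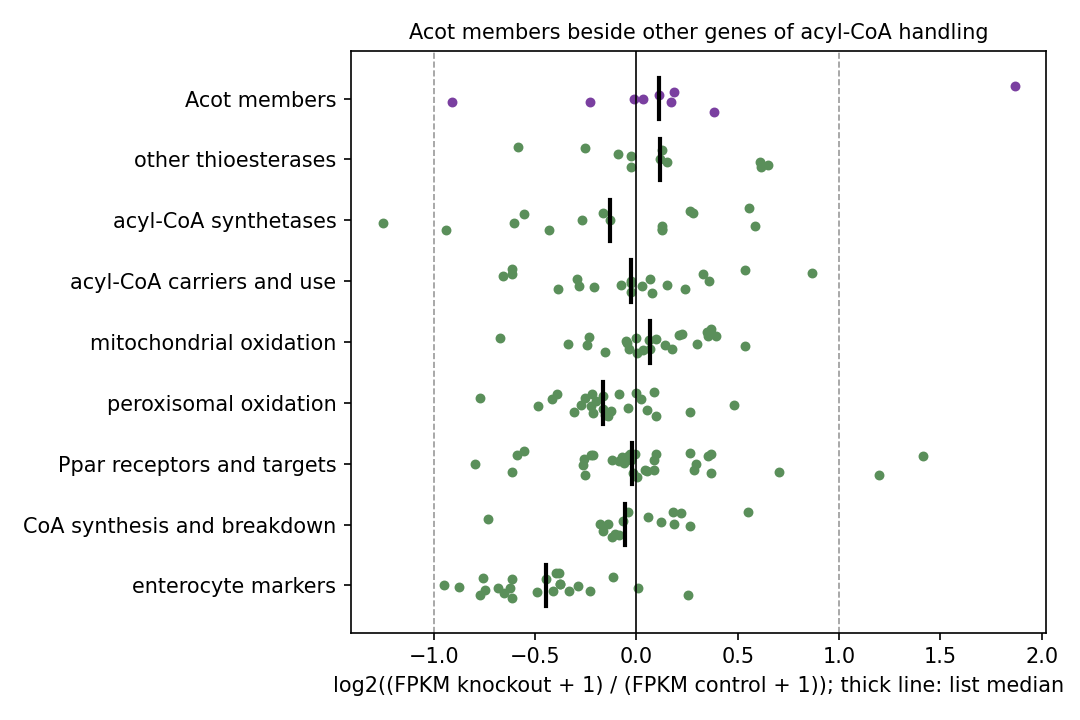
Log2 ratio of knockout over control (pseudocount 1 FPKM) for each measured gene of the Acot members, the 7 lists of acyl-CoA handling and the enterocyte markers, with a thick line at the list median and dashed lines at 2-fold; vertical scatter within a list is for legibility. Acot1 lies at 1.87, past every other point drawn (the other marker lists are not drawn), enterocyte markers centre on -0.44, and the medians of the acyl-CoA lists lie between -0.16 and 0.12.

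Markers of other cell types and tissues were read beside Acot1. Pancreatic acinar genes were higher with the knockout: 16 of 18 were past 2-fold on the higher side, none was at 0, and their summed FPKM was 189.7 for the control and 2359 for the knockout. Among them Try5 was at 3.06 and 212.0, Ctrb1 at 10.21 and 537.7 and Klk1 at 45.21 and 40.85. The part of these cells in the Acot1 value was not tested. Fat markers summed to 252.6 and 247.6 FPKM. Of these markers, Adipoq was at 0.47 and 0.09, Plin1 at 0.06 in both and Lep at 0 and 0.04. Other fat markers had higher levels than these in both pools, with little difference between pools. Cidec was at 109.7 and 104.3, Fabp4 at 23.01 and 19.35, Lpl at 1.99 and 1.67 and Plin4 at 1.60 and 1.63. Cidea was at 0.20 and 1.31, Cfd at 2.89 and 2.05 and Pck1, which enterocytes also express, at 112.8 and 117.04. For liver, Alb was at 0.16 and 0.28 FPKM, and of the 2 markers that reached an FPKM of 1, Ttr was at 1.67 and 4.35 (18 and 46 counts) and Cps1, also an enterocyte gene, at 125.5 and 130.7.

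Proliferation genes had a summed FPKM of 295.8 for the control and 430.6 for the knockout, with all 20 above 0 and 1, Mcm2, past 2-fold (7.03 and 18.67). Pcna was at 77.99 and 126.7 and Mcm3 at 9.46 and 9.88. Sums for 13 macrophage markers were 249.9 and 237.3, with Cd68 at 4.37 and 6.29, Fcgr1 at 1.40 and 0.71 and Lyz2 at 107.7 and 76.97. Sums for smooth muscle were 670.1 and 687.8, with Myl9 at 134.5 and 161.01 and Mylk at 61.80 and 55.04, and for enteric neurons and glia 26.34 and 31.39, with Vip at 5.03 and 9.41 and Snap25 at 2.82 and 2.14. The part of any of these cells in the Acot values was not tested.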

How the data were processed

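In all, 2 libraries of pooled intestinal RNA were compared, 1 per genotype. Per the labels' protocols and the submitters' processing notes, the authors aligned reads to mm10 with BWA and Bowtie2 and quantified genes with RSEM, with no versions given. The authors deposited RSEM expected counts and FPKM per gene; counts are fractional where RSEM divided a read among genes. Genes were matched by symbol. Compared values were log2 ratios of FPKM with a pseudocount of 1, over genes reaching an FPKM of 1 in either library, and ratios of CPM, scaled to total expected counts, with exact Clopper-Pearson 95% intervals from rounded counts. With 1 library per group there was no test and no p-value. Calls and intervals were tried on simulated Poisson counts, which hold no division of reads among genes and no spread between mice. That simulation therefore does not speak to these 2 limits. Positions and promoter windows came from RefSeq (GRCm38.p6, the same build as mm10; 9 of 10 members had a window) and coding sequences from GENCODE M21. Python 3.11.15, SciPy 1.17.1 and Biopython 1.88 were used. Named genes were all members, the other thioesterases, Setd2, Ppara and, for each other list, the genes with the highest and lowest log2 ratio and the highest mean FPKM. A gene the rule selects is not reported here. Adipoq, Plin1, Lep, Cidec, Fabp4, Lpl, Plin4, Alb, Cpt1a and Fabp3 lie outside this rule, being picked once their values were known. So were the genes beside the cluster and those overlapping members. Members and lists were chosen with earlier results of these data known.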

Additional observations from a re-analysis of the deposited data

How the results depend on the processing

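With 1 library per pool, no replicate could be left out. No paired analysis was possible because each group had 1 library. Over pseudocounts of 0.1 and 0.5 FPKM, scaling by the median ratio, TPM and CPM, none of 45 recomputed log2 ratios of the 9 listed members moved by more than its counting interval allows; Acot1 ranged from 1.78 to 2.55 and Acot12 from -1.0 to -0.91, and Acot9 changed sign under the median ratio. Acot1 stayed past 2-fold under each of these. Its ratio is the same by definition without a filter and at an FPKM of 5 or more, so those settings do not check it. At an FPKM of 5 or more Acot1 was kept through the knockout pool alone (6.18 against 0.97 FPKM). Under the median ratio 2 members were past 2-fold, 1 of them lower (Acot12), because that scaling lowers every knockout value. Summed over the chromosome 12 genes the count ratio was 1.09, against 6.40 for Acot1 alone. Acot4 held 226.9 of the 315.5 control counts in that sum. Of the 100-base coding windows of Acot4, 1.89% occurred in other genes, so the sum mixes Acot1 with a gene that is mostly distinct. For Acot1 and Acot2 alone the summed ratio was 2.30 (1.68 to 3.13). Over all genes, 539 were past 2-fold. With a pseudocount of 0.1 FPKM they were 981 (699 higher, 282 lower), with an FPKM of 5 or more 275 (191 and 84), with TPM, over 14587 genes that reached a TPM of 1 in place of 13253, 849 (613 higher), and with a minimum of 50 counts for the larger of the 2 values, chosen after seeing the data, 296 (216 and 80); the causes were not tested. The median over members lay between 0.02 and 0.13. The Acot1 ratio rests on 13.20 control counts, which give an interval of 3.60 to 12.7, and on the division of reads between genes, which that interval does not cover.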
